A study of Homo sapiens with 6 samples.

Results

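The RNA of 10 heat shock protein genes of the cytosol and mitochondria was followed in 6 RNA-seq libraries. The genes were fixed by name and matched by identifier to GENCODE 44 symbols among the 62700 genes of the deposited count table: HSPA8, HSPA1A, HSPA1B, HSPH1, DNAJB1, BAG3, HSP90AA1, HSP90AB1, HSPB1 and HSPD1. The libraries came from MKN-45 cells by label, a gastric adenocarcinoma line of human origin. There were 3 control libraries, whose genotype label names a negative-control shRNA while the series' design text calls them untouched, and 3 libraries labelled NNMT knockdown. The treatment protocol instead describes siRNA given with a lipid reagent to both groups, with harvest after 48 h. The question set by the design is what changes when NNMT, a nicotinamide methyltransferase, is lowered.

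Heat shock proteins are chaperones that bind unfolded proteins and help them fold. HSP70 proteins bind exposed segments in a cycle of ATP hydrolysis, in which J-domain proteins such as DNAJB1 deliver clients and nucleotide exchange factors such as HSPH1 and BAG3 release them, and HSP90 then matures kinases and receptors. HSPB1 belongs to the small heat shock proteins, which hold unfolded proteins without ATP, and HSPD1 (HSP60) folds proteins inside mitochondria with its lid HSPE1 (HSP10). Heat shock factor 1, encoded by HSF1, drives many of these genes through repeats of nGAAn, the heat shock element, and tumour cells often express them at high levels.

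The upstream sequences of the members are shown here because most held part of that element. The windows of HSPA1A and HSPA1B are given whole for their likeness, and that of HSP90AA1 as 1 with the 3-unit form. RefSeq promoter windows on GRCh38.p14 were matched for 10 of 10 genes, 16 windows in all, and the 250 bases before each start were searched on both strands. The 3-unit element, GAANNTTC followed by NNGAA or its reverse complement, TTCNNGAA followed by NNTTC, was found in 4 of 16 windows, those of HSPA8, HSP90AA1, HSP90AB1 and HSPD1. It was found in 0.441% of all 35116 windows. A 2-unit form, GAANNTTC or TTCNNGAA, each of which is its own reverse complement and lies within the 3-unit element, was found in 8 of 16 windows, of 8 genes, against 11.6% of all windows. Both were searched as exact letters. No window of BAG3 or HSPH1 held either form. For HSP90AA1, HSP90AB1 and HSPD1 the matches lay only in the window of a downstream annotated start. Annotated exons covered 250 bases of the HSPA8 window, and 193 and 77 bases of the matching HSPD1 and HSP90AB1 windows. Capitals mark the matching letters in each sequence, which runs 5′ to 3′ along the gene.
HSPA1A, chr6:31815293-31815542, plus strand: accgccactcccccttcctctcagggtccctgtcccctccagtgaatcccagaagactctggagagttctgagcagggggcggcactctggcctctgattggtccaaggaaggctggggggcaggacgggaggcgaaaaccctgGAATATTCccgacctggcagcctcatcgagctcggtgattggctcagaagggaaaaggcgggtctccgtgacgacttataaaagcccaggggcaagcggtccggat
HSPA1B, chr6:31827488-31827737, plus strand: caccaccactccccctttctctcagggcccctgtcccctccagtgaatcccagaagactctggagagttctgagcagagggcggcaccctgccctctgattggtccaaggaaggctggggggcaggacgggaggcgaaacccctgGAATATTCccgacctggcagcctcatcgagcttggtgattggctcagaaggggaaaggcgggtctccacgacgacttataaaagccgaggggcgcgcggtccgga
HSP90AA1, chr14:102087045-102087294, minus strand: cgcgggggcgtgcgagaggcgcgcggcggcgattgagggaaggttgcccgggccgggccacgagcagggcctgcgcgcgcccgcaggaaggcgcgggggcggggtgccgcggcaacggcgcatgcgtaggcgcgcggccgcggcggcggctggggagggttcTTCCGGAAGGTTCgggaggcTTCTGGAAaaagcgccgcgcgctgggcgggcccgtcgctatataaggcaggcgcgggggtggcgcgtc
The HSPA1A and HSPA1B windows had the same base at 235 of 249 aligned positions, and both held GAATATTC, starting at position -106 and at position -105 from the annotated start. The HSP90AA1 window, that of the downstream RefSeq start, held a 3-unit element from position -88 and a further 2-unit form from position -68. For HSPA8, HSP90AB1, HSPD1 and DNAJB1, the stretch around a match is given.
HSPA8, chr11:123062171-123062198, minus strand: gggccccTTCTGGAAGGTTCtaagatag
HSP90AB1, chr6:44247824-44247851, plus strand: gagattgTTCTGGAAGCTTCtggattct
HSPD1, chr2:197500063-197500090, minus strand: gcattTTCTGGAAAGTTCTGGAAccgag
DNAJB1, chr19:14518457-14518484, minus strand: gggcggggcgGAAGGTTCtggagggggc
The HSPD1 stretch held 2 overlapping 3-unit matches, from positions -245 and -240. A match describes letters and was not tied to any binding measurement.

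The libraries held 40558680 to 56067484 reads assigned to genes, and 3.9% to 4.82% of them came from the mitochondrial genome. NNMT was near the detection limit, with 0, 8 and 12 reads in control replicates 1, 2 and 3 and 2, 8 and 14 in the labelled replicates, so no lowering of the target could be seen. Its fitted fold had a 95% interval from 0.336 to 5.78. Of 13 genes that mark gastric and intestinal epithelium, 5 exceeded a mean of 1 CPM (reads of a gene scaled to library size). They were MUC6 at 50.9 CPM, CEACAM5 at 8.01, GATA6 at 7.07, TFF1 at 5.27 and TFF2 at 1.67. CEACAM5 ran from 0.289 to 26.8 CPM across controls. CDX1, CDX2 and GKN1 had 0 reads in all libraries, whereas all 5 general epithelial markers exceeded 1 CPM. Of 4 leukocyte markers 0 exceeded 1 CPM, and of 3 endothelial markers 1 did (PECAM1, at 23.2 CPM). Of 5 fibroblast markers COL1A1 and COL3A1 did, at 323 and 83.4 CPM. In bulk RNA, fewer cells of a type and less RNA per cell cannot be told apart.

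How completely each gene could be counted differed, since neither reads with several alignments nor reads touching several genes were counted. Of the 150-base words in annotated HSPA1A transcripts, 63.2% also occurred in HSPA1B, and of those of HSPA1B 66% occurred in HSPA1A. HSPA1B also shares 920 of 2517 exon bases with an unnamed gene on the same strand, ENSG00000285565, and 45.1% of the 150-base placements along its main transcript touch that gene. Both HSPA1 counts are therefore uncertain and lower limits on what was sequenced. For the other 8 members, 0% of such placements along the main transcript touch another gene, and at most 1.56% of words, those of HSPD1, occurred in another gene's transcripts.

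The members differed widely in level, with HSP90 highest. Together they took 0.35% to 0.407% of all assigned reads. By mean CPM, 53 genes of the deposited table lay above HSP90AB1 and 5494 above HSPA1B. For levels of different genes, reads were divided by exon length and scaled to the same sum in each library (TPM). HSP90AB1, the constitutive cytosolic HSP90, had the highest level, at 1885 ± 104 TPM in control and 1721 ± 142 TPM in the libraries labelled knockdown (SD, n = 3 each). HSP90AA1, the more stress-responsive HSP90, followed at 659 ± 57 and 724 ± 115 TPM. The constitutive HSP70 gene HSPA8 measured 540 ± 31.6 and 544 ± 29.2 TPM.

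BAG3, which links HSP70 to small heat shock proteins and to autophagy, reached 481 ± 44.7 TPM across controls against 429 ± 25.7 TPM in the labelled libraries (SD, n = 3 each). Then came HSPB1, with a mean of 200.02 TPM over the 6 libraries, HSPD1 at 125 TPM and DNAJB1 at 103 TPM. The heat-inducible HSP70 genes HSPA1A and HSPA1B lay at 92.9 and 67.6 TPM, and the exchange factor HSPH1 was lowest at 35.2 TPM. The levels of HSPA1A and HSPA1B are lower limits, so their places in this order are uncertain. The ranges over the 6 libraries did not meet between HSP90AB1 and HSP90AA1, HSP90AA1 and HSPA8, BAG3 and HSPB1, or HSPA1B and HSPH1. They overlapped between all other neighbours in this order. With the length of the main transcript in place of all annotated exons, a choice made after the data were seen, HSPA8 moved above HSP90AA1 and HSPB1 moved below HSPD1 and DNAJB1. The gaps changed too, since annotated exons cover 8188 bases for DNAJB1 and 7629 for HSPD1, against main transcripts of 2264 and 2455. Per kilobase of main transcript, BAG3 had 116 CPM, HSPD1 92.9, DNAJB1 89.4, HSPB1 85.6 and HSPA1A 21.6. By this length DNAJB1 lay close to BAG3 and well above HSPA1A, whose count is a lower limit.

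**Figure D1:**
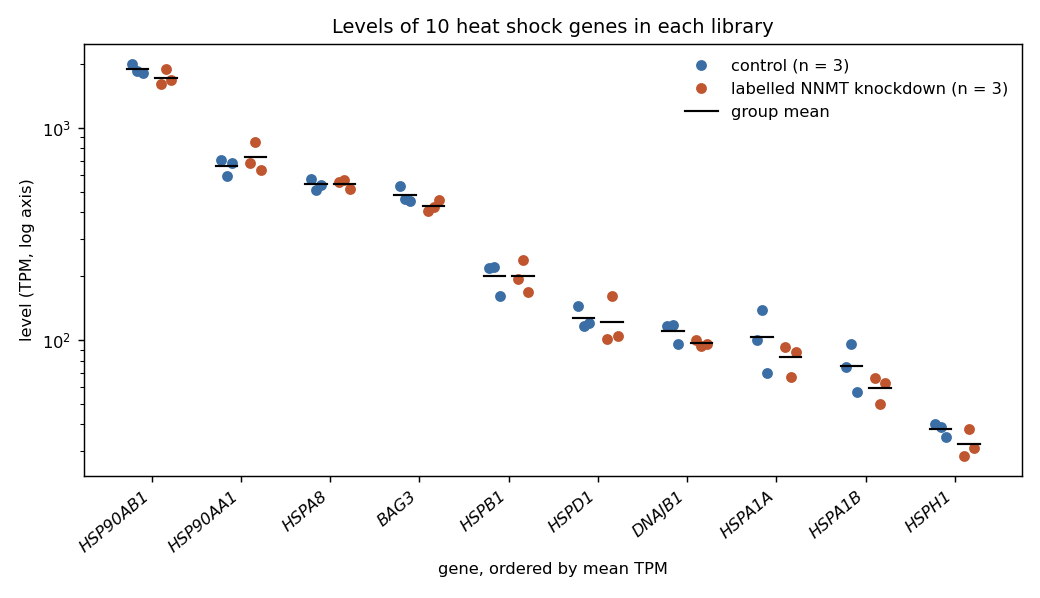
Level of each gene in each library in TPM on a log axis, with points for the 3 control and the 3 libraries labelled NNMT knockdown and bars for group means. HSP90AB1 lies above all other members in every library and HSPH1 below them, and the groups overlap for each gene.

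Between the groups, none of the 10 genes differed beyond the spread of the libraries. In edgeR's quasi-likelihood test 0 of 10 members passed an adjusted p of 0.05, where 0 of 20250 tested genes, or 0%, did. DESeq2 also called 0 members, where it called 0.0412% of 19430 genes. At an unadjusted p under 0.05 in edgeR's test there were 0 members, against 2.05% of all tested genes lower and 1.98% higher. All 10 passed the filter on low counts. The median log2 fold change of the members (labelled knockdown over control) was -0.135, with 7 below 0 and 3 above, against 0.00333 over all tested genes. The CPM of the groups overlapped for each of the 10 members, while 4.88% of all tested genes lay wholly lower and 4.29% wholly higher in the labelled libraries. The 95% interval of the fold lay within 1.5-fold either way for 8 members and within 2-fold for all 10.

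Among the HSP70 genes, HSPA8 was the steadiest. It measured 667, 594 and 613 CPM in control replicates 1, 2 and 3 and 648, 656 and 602 CPM in replicates 1, 2 and 3 labelled knockdown. These values interleave, and the log2 fold change was 0.03 (SE 0.0947, edgeR adjusted p = 0.999, the value also found for each other member). Its SD over the 6 libraries, 0.0799 on the log2 scale, was larger than that of 16.6% of 11518 genes with a mean of at least 5 CPM.

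Of the members, the inducible genes HSPA1A and HSPA1B varied most over the 6 libraries. HSPA1A measured 57.8, 80.2 and 39.6 CPM in control replicates 1, 2 and 3 and 54, 38.5 and 51.4 CPM in the labelled replicates. The highest and the second lowest library were both controls. HSPA1B, which encodes nearly the same protein, measured 45, 57.6 and 33.8 CPM across controls against 40.2, 30 and 38.2 CPM in the knockdown-labelled set. Control replicate 2 was highest and labelled replicate 2 lowest for both, a span of 2.08-fold for HSPA1A and 1.92-fold for HSPA1B. Their SD, 0.398 and 0.337 on the log2 scale, exceeded that of 96.8% and 95.1% of genes, where the median gene had 0.13.

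The fitted log2 fold changes were -0.30 (SE 0.284) for HSPA1A and -0.33 (SE 0.208) for HSPA1B. They were -0.02 and -0.12 without control replicate 2, -0.16 and -0.20 without labelled replicate 2, and -0.53 and -0.51 without control replicate 3. With the reads of both genes summed into 1 feature the log2 fold change was -0.31 (SE 0.255), whose 95% interval as a fold ran from 0.525 to 1.24 (edgeR adjusted p = 0.999).

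HSPH1, an HSP110 that exchanges nucleotide on HSP70, measured 80.7, 78.6 and 68.8 CPM across controls against 57.5, 76.1 and 63.1 CPM in the knockdown-labelled set. Only labelled replicate 2 reached into the control range. Its log2 fold change, -0.21 (SE 0.109), had the lowest unadjusted p of the members, 0.0771 in edgeR's test. It was -0.14 without labelled replicate 1 and -0.32 without labelled replicate 2.

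DNAJB1, the main J-domain partner of inducible HSP70, measured 229.6, 230.7 and 184 CPM across controls against 198, 183 and 189.99 CPM in the knockdown-labelled set, with a log2 fold change of -0.17 (SE 0.108). Control replicates 1 and 2 stood above the rest, and control replicate 3 lay among the labelled libraries. Without control replicate 1 the change was -0.11 and without control replicate 3 it was -0.28. BAG3 measured 349.6, 303 and 290.3 CPM across controls against 268, 276 and 303 CPM in the knockdown-labelled set, with a log2 fold change of -0.15 (SE 0.101). Its control replicate 1 was highest, and without that library the change was -0.06.

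The HSP90 genes leaned to opposite sides. HSP90AA1 measured 859, 727 and 818 CPM across controls against 843, 1036 and 783 CPM in the knockdown-labelled set, and its log2 fold change was 0.15 (SE 0.119). Labelled replicate 2 alone exceeded all controls, and without it the change was 0.03, against 0.08 without control replicate 2 and 0.23 without labelled replicate 3. HSP90AB1 measured 1432, 1316 and 1273 CPM across controls against 1159, 1337 and 1207 CPM in the knockdown-labelled set, with a log2 fold change of -0.12 (SE 0.102). Labelled replicate 2 lay between the controls and the remaining labelled libraries lay below them, and without control replicate 1 the change was -0.06.

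HSPB1, a small heat shock protein with ties to the actin cytoskeleton, measured 84.7, 85.6 and 61.5 CPM across controls against 76.1, 92.5 and 66.5 CPM in the knockdown-labelled set, with a log2 fold change of 0.02 (SE 0.158). HSPD1 measured 265, 214 and 217 CPM across controls against 187, 292 and 193 CPM in the knockdown-labelled set, with a log2 fold change of -0.05 (SE 0.171). For HSPD1, the labelled group held both the highest and the lowest library.

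**Figure D2:**
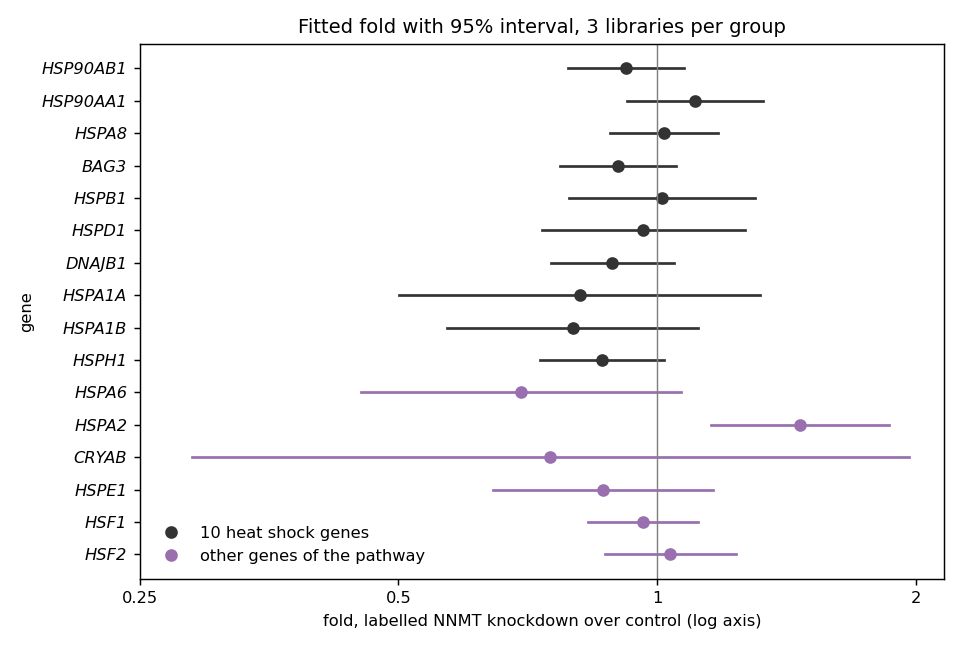
Fitted fold of the libraries labelled NNMT knockdown over control on a log axis, with 95% intervals, for the 10 members in black and 6 other genes of the pathway in purple. All 10 member intervals include 1, and the interval of HSPA2 lies above 1, from 1.16 to 1.86, although it did not pass after adjustment.

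Ratios between related genes need no scaling between libraries and were compared for 3 pairs by exact two-sided permutation tests, in which 3 libraries against 3 cannot give a p below 0.1. The ratio of HSP90AA1 to HSP90AB1, in reads per exon base, was 0.35, 0.323 and 0.376 in control replicates 1, 2 and 3 and 0.426, 0.453 and 0.3796 in the labelled replicates. All labelled values lay above all controls, although control replicate 3 and labelled replicate 3 were nearly equal. The log2 difference was 0.26 (exact permutation p = 0.1, and 0.15 after Benjamini-Hochberg adjustment over the 3 ratios).

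The ratio of HSPD1 to HSPE1, genes that lie head to head on chromosome 2, was 6.12, 6.5 and 6.15 in control and 6.87, 7.06 and 6.95 in the labelled libraries. The groups did not overlap, with a log2 difference of 0.15 and SDs of 0.0488 and 0.0201 (exact permutation p = 0.1, adjusted 0.15). These SDs come from 3 libraries each, and the counting error of the few HSPE1 reads was not computed. The level of this ratio is not that of the RNAs. HSPE1 had 264 to 473 reads per library, and 76.3% of the 150-base placements along its main transcript touch HSPD1 or the readthrough gene HSPE1-MOB4, where reads were not counted. HSPE1-MOB4 itself had 0 reads in every library.

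The ratio of HSPA1A plus HSPA1B to HSPA8 was 0.304, 0.459 and 0.237 in control and 0.287, 0.206 and 0.295 in the labelled libraries. These overlapped, with a log2 difference of -0.31 (exact permutation p = 0.4, adjusted 0.4), which was -0.05 without control replicate 2, -0.14 without labelled replicate 2 and -0.53 without control replicate 3. The level of this ratio, too, is not that of the RNAs. The HSPA1A and HSPA1B counts are lower limits, and HSPA8 was divided by 4849 exon bases against a main transcript of 2463.

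**Figure D3:**
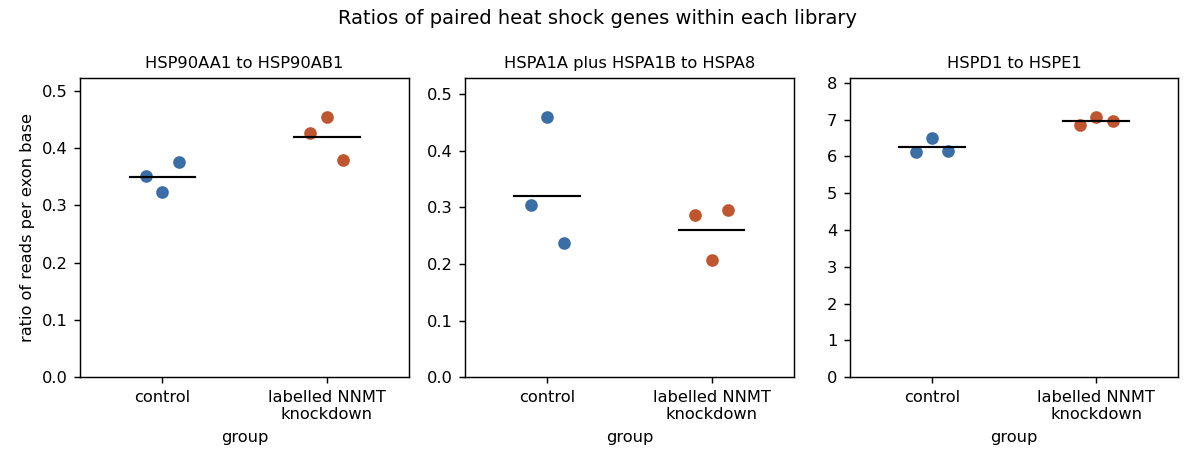
Ratio of reads per exon base of paired genes in each library, with 3 points per group and a bar at the geometric mean. The HSP90AA1 to HSP90AB1 and HSPD1 to HSPE1 ratios are higher in all 3 labelled libraries, while the ratio of inducible to constitutive HSP70 overlaps and is highest in control replicate 2.

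The members were compared pair by pair across the cultures. Of 45 pairs, 37 (82.2%) had a positive Pearson correlation of log2 level over the 6 libraries, and the median r was 0.368. Over all pairs of 11518 genes with a mean of at least 5 CPM, 50.4% were positive and the median r was 0.01. Pairs share genes and libraries and are not independent. By exact permutation 4 pairs had an unadjusted p under 0.05 and 0 an adjusted p under 0.05. The smallest p that 6 libraries allow is 0.00139, which adjusts to 0.0625 when 1 pair alone reaches it, so no single pair could pass. The closest pair was HSPA1A and HSPA1B (r = 0.987, exact permutation p = 0.00139, adjusted 0.0625; rho = 1, p = 0.00278, adjusted 0.0625), and r was 0.959 without the 2 libraries farthest from the HSPA1A median. They share sequence, and the part of shared reads in this value was not tested.

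DNAJB1 followed HSPA1B (r = 0.918, exact permutation p = 0.00556, adjusted 0.104; rho = 0.943, p = 0.0167, adjusted 0.188; r = 0.946 without the 2 farthest libraries). It also followed HSPA1A (r = 0.889, exact permutation p = 0.0181, adjusted 0.203; rho = 0.943, p = 0.0167, adjusted 0.188; r = 0.815 without the 2 farthest libraries). HSPH1 ranked the libraries exactly as HSP90AB1 did (r = 0.936, exact permutation p = 0.00694, adjusted 0.104; rho = 1, p = 0.00278, adjusted 0.0625; r = 0.978 without the 2 farthest libraries). Groups of 3 were too small for a correlation of their own. With each group's mean subtracted, a step added after the data were seen, these 4 r were 0.998, 0.89, 0.889 and 0.898 in the order given.

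For HSP90AA1 and inducible HSP70 the correlation did not pass. Its r with HSPA1B was -0.699 (exact permutation p = 0.122, adjusted 0.511; rho = -0.486, p = 0.356, adjusted 0.772). Without control replicate 2 and labelled replicate 2, the libraries farthest from the HSPA1B median, r was 0.752, so the negative value rests on those 2 libraries. In labelled replicate 2, HSP90AA1 and HSPD1 stood 0.28 and 0.35 above their means on the log2 scale while HSPA1A and HSPA1B stood 0.45 and 0.43 below theirs (-0.45 and -0.43). That library also had the lowest mitochondrial share, 3.9%, and its part in this pattern was not tested.

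**Figure D4:**
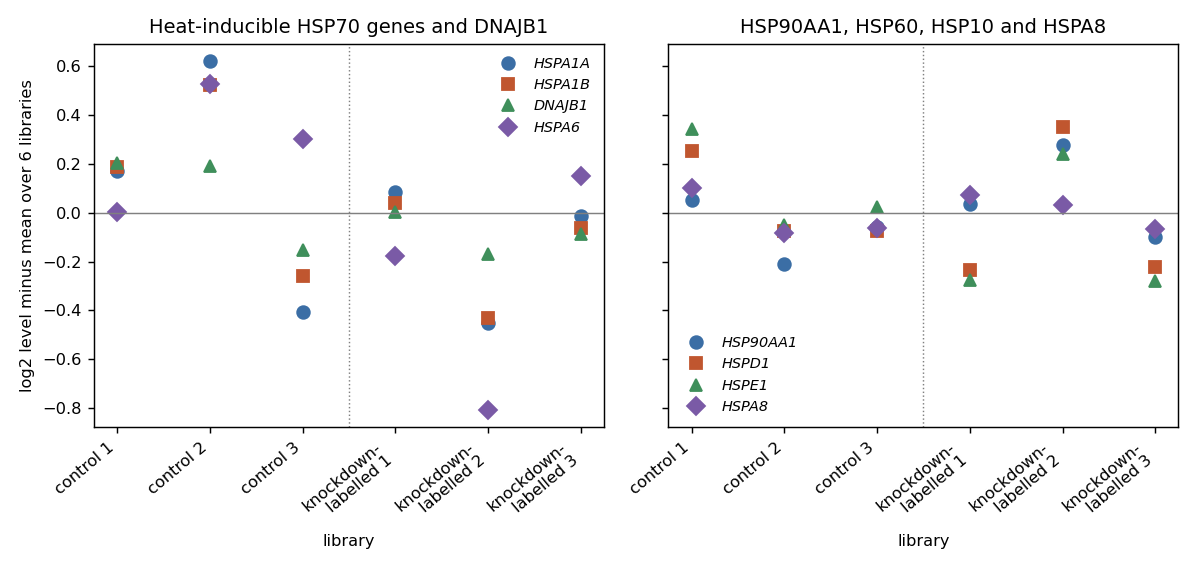
Log2 level of each gene in each library minus its mean over the 6 libraries, with controls left of the dotted line. HSPA1A, HSPA1B and HSPA6 are highest in control replicate 2 and lowest in labelled replicate 2, where HSP90AA1 and HSPD1 are at their highest, and HSPA8 stays near 0.

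Genes outside the list whose levels ran most closely with 4 chosen members were found by the root-mean-square distance of centred log2 levels over the 6 libraries, among 11508 genes. Nearest to HSPA1B was the transcription factor gene KLF4, at 0.0709, followed by GCNA and SOX21, where the median gene lay at 0.328. HSPA1A, at 0.0785, was closer than all genes but KLF4. Nearest to HSPD1 was PDCL3, a phosducin-like gene, at 0.0329, then PARPBP and ETFB, and HSPE1 lay at 0.0771 with 33 genes closer. ADK, MMS22L and RTN3 were nearest to HSP90AA1 (0.0188, 0.0228 and 0.0237), and TADA3, CCDC125 and ABHD14B were nearest to BAG3 (0.0207, 0.0284 and 0.0289). These distances describe only the 6 libraries.

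In the rest of the chaperone network 0 genes of any list passed the same test in either direction. The heat shock factor genes differed little between libraries. HSF1 measured 146 ± 15.7 CPM across controls against 140.2 ± 2.8 CPM in the knockdown-labelled set, and HSF2 measured 16 ± 0.869 and 16.6 ± 0.892 CPM (SD, n = 3 each). HSBP1, a small protein that binds heat shock factor 1, measured 47.4, 46.8 and 48.4 CPM across controls against 41.7, 41.9 and 43.4 CPM in the knockdown-labelled set, without overlap, but its log2 fold change of -0.16 (SE 0.0795) had an edgeR adjusted p of 0.999. The median log2 fold change of the 5 tested factor and regulator genes was 0.02, and HSF2BP, which binds HSF2, had 0.21, its groups not overlapping.

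Among 10 other HSP70 family genes 5 lay above 0 and 5 below, with a median of -0.01. HSPA6, usually described as a strictly heat-inducible HSP70, was nevertheless read in every library, with a mean of 43.4 CPM. It measured 41.3, 60.3 and 52.3 CPM across controls against 36, 24 and 46.3 CPM in the knockdown-labelled set. Its log2 fold change was -0.53 (SE 0.258, edgeR adjusted p = 0.999). Like HSPA1A it was highest in control replicate 2 and lowest in labelled replicate 2, and 15.2% of its 150-base words also occur in the neighbouring HSPA7. HSPA2, best known from the testis, measured 10.7, 8.05 and 8.61 CPM across controls against 12.8, 15.2 and 12 CPM in the knockdown-labelled set. These groups did not overlap, and the log2 fold change was 0.55 (SE 0.156, unadjusted p = 0.00472, edgeR adjusted p = 0.999). HSPA1L measured 1.52 ± 0.311 and 2.1 ± 0.595 CPM (SD, n = 3 each).

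Of 18 tested heat-inducible genes outside the members, 13 lay below 0, where 49.2% of all tested genes did, and the median was -0.09 against 0.00333. For 3 of the 18 the groups did not overlap, all lower, while 4.88% of all tested genes lay wholly lower. The difference between these shares was not tested. ATF3, a stress transcription factor gene, had the lowest p of them, with 10.1, 11.7 and 10.4 CPM across controls against 7.03, 6.41 and 8.79 CPM in the knockdown-labelled set. Its log2 fold change was -0.53 (SE 0.161, unadjusted p = 0.00725, edgeR adjusted p = 0.999). This list shares genes with the others, HSPA6 among them.

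The list of other HSP90 family genes and co-chaperones had a median of 0.01 over 13 genes. STUB1, a ubiquitin ligase that marks chaperone clients, measured 35.8 ± 4.15 CPM across controls against 44.1 ± 3.56 CPM in the knockdown-labelled set, CHORDC1 53.5 ± 1.73 and 48 ± 3.8 CPM, and the HSP90 activator AHSA1 49.7 ± 3.95 and 55.9 ± 7.08 CPM (SD, n = 3 each). The J-domain list had a median of -0.01 over 11 genes, with a log2 fold change of -0.17 for DNAJC7, 0.11 for DNAJC2 and -0.22 for DNAJB4. Of 8 small heat shock proteins outside the members only CRYAB passed the filter on low counts, at 0.417 ± 0.181 and 0.313 ± 0.211 CPM (SD, n = 3 each). HSPB1, at a mean of 77.8 CPM over the 6 libraries, was by far the highest of this class.

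The 15 mitochondrial chaperones and proteases had a median of 0.01. CLPP, a matrix protease subunit, measured 51.5 ± 2.56 and 59.8 ± 4.12 CPM and HSPE1 8.88 ± 1.3 and 7.68 ± 1.92 CPM, controls given first (SD, n = 3 each). Over the 8 nucleotide exchange factors the median was 0.02, with log2 fold changes between -0.09 for GRPEL2 and 0.09 for BAG5, and 0.07 for BAG1. The 14 TRiC and prefoldin genes, which fold actin and tubulin, had a median of 0.01, and PFDN5 lay lowest, at 12.2 ± 1.79 CPM across controls against 9.25 ± 0.511 CPM in the knockdown-labelled set (SD, n = 3 each), followed in p by CCT2 and PFDN4.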

How the data were processed

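RNA was sequenced from 3 control cultures and 3 labelled NNMT knockdown, as paired reads of 150 bases, and the labels call the replicates independent. The authors deposited raw read counts per gene, made with featureCounts 2.0.6 (options -p -B -C, no strand setting) on hg38 with GENCODE 44, per the file headers. The deposited table also gives each gene's exon length in bases, the other unit used. For the aligner, nothing is stated: it was not given in the sources used here. Mates were probably counted singly: 73.4% to 76.7% of counts from 2 to 10 were even. A count of 0 allows up to 3 reads, or 0.0535 to 0.074 CPM, for counting error only. Without strand, a gene and its antisense partner cannot be told apart.

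The main test was edgeR 4.0.16 (R 4.3.3) quasi-likelihood with filterByExpr, TMM scaling, robust dispersion and group as sole term, over 20250 genes with Benjamini-Hochberg adjustment. Tested once on simulated data, it recovered most changed genes, but a larger share of its calls was false than the threshold allows. The planted changes were all larger than any fitted for a member, so changes of the members' size were not tried. CPM and TPM were computed from library totals and deposited lengths. Log2 levels for patterns were log2(TMM-scaled CPM + 0.5). Sequence words and main transcripts (the longest APPRIS principal) came from GENCODE 29. Named genes are the members, HSPE1, HSF1, HSF2, the target NNMT, up to 3 genes of lowest p per list, and the 3 nearest in pattern to HSPA1B, HSP90AA1, HSPD1 and BAG3. HSPA7 and HSPE1-MOB4 were added afterwards. Members and lists were chosen with earlier results of these data known. Every pair of libraries differed by more than sampling noise (chi-square per gene 11.97 to 43.96). The closest pair was control replicate 3 and labelled replicate 3, from different groups. A planned comparison of the proteins was not made. Alternatives were other scalings, no filter, DESeq2 1.42.0, limma-voom 3.58.1, a replicate block, halved counts, summed HSPA1 reads and leaving out each library.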

Additional observations from a re-analysis of the deposited data

How the results depend on the processing

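The count of 0 members called held under all 16 alternatives, and the members' median log2 fold change stayed below 0 in each. Over all genes the main test called 0 (817 at an unadjusted p under 0.05), against 72 without a filter on low counts, 8 with DESeq2 and 0 to 1 when a library was left out, the 1 gene appearing without control replicate 3; limma-voom called 0. The cause was not tested. Of 159 member values under alternatives, 7 changed sign, all with a library left out, where the log2 fold change ran from -0.0089 to 0.0864 for HSPA8, -0.1295 to 0.1251 for HSPB1 and -0.2775 to 0.0642 for HSPD1. So did those of HSF1 (-0.1431 to 0.0203), HSF2 (-0.00038 to 0.1028), CRYAB (-0.9445 to 0.0371), BAG5 (-0.0012 to 0.1832) and BAG1 (-0.0176 to 0.1324). The median of the members was -0.0587 without control replicate 1. With upper quartile scaling or library totals, both added after the data were seen, 2 pairs of members passed, HSPA1A with HSPA1B (r = 0.987 and 0.985) and HSPA1B with DNAJB1 (r = 0.929 and 0.910), each at an exact permutation adjusted p of 0.0313. The 3 ratio differences kept their sign with each library left out. Raw reads were the only other alternative run for them. They cannot alter the differences for HSP90AA1 to HSP90AB1 and HSPD1 to HSPE1, where length cancels. For HSPA1A plus HSPA1B to HSPA8 the difference with raw reads was -0.31.

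Replicate numbers in the titles do not state a pairing, and deviations of same-numbered libraries correlated at 0.0732, -0.23 and 0.4. Those of differently numbered libraries correlated at -0.526 to 0.388. With the replicate block, 0 genes and 0 members were called and the members' median was -0.133, so it changed no call. The HSPD1 to HSPE1 ratio rests on 264 to 473 HSPE1 reads per library. With halved counts, 0 member values changed sign.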
